A study of Homo sapiens with 4 samples.

Results

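TRIM24 and its paralogs TRIM28, TRIM33 and TRIM66 form the TIF1 family (transcription intermediary factor 1) of chromatin co-regulators. They are 4 of the 19775 genes with a probe set, and all probe sets that the platform's annotation pairs with exactly 1 of these symbols were taken. These were 12 of the 54613 probe sets that are not array controls, 4 for TRIM24, 1 for TRIM28, 4 for TRIM33 and 3 for TRIM66. The family was chosen by the fold change of TRIM24, which was lower after TTF-1 knockdown in earlier results of these same arrays. Its siTTF-1 values, and those of its paralogs in the same contrast, are therefore a description with no test.

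The samples were 4 Affymetrix arrays of total RNA from the human cell lines NCI-H209 and Lu139, both derived from small cell lung cancer. Both lines were electroporated, one portion with siRNA against TTF-1 (siTTF-1) and one with a control siRNA (siNTC). This gave the groups NCI-H209 siTTF-1, NCI-H209 siNTC, Lu139 siTTF-1 and Lu139 siNTC, each measured on 1 array, so no value within a line has a replicate. TTF-1, encoded by NKX2-1, is a homeodomain protein that regulates transcription in lung and thyroid. The siRNA sequences and the time from electroporation to RNA extraction were not given in the sources used here.

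TIF1 proteins carry a tripartite motif, which gives TRIM genes their name, and end in a PHD finger and a bromodomain. Such modules can read histone tails, though not in every protein that carries them. TRIM24 binds ligand-bound nuclear receptors such as the retinoic acid and estrogen receptors, and it is a ubiquitin ligase for p53. TRIM28, also called KAP1, is recruited to DNA by KRAB zinc finger proteins and brings in the histone methyltransferase SETDB1 and HP1 proteins, which silences transposons and genes. TRIM33 binds SMAD proteins and acts on SMAD4 in TGF-beta signalling, and TRIM66 was described in mouse as a testis protein that binds HP1.

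Intensities are on the authors' linear scale. Log2 fold changes set siTTF-1 over siNTC after 18.7 was added to each value, so those of dim probe sets are understated. A probe set was taken as above the expression limit where its mean log2 value exceeded 5.80, an intensity of 36.9. Median intensities were 57.6 (siTTF-1) and 56.4 (siNTC) for NCI-H209, and 49.5 (siTTF-1) and 48.3 (siNTC) for Lu139. Of 10 small cell and neuroendocrine markers listed, the 8 analysed (INSM1, CHGA, CHGB, SYP, NCAM1, DLL3, ENO2 and SCG3) were above the limit, with intensities from 77.2 to 9183. Of 8 markers of blood, stromal and endothelial cells listed, 7 were analysed, of which PTPRC, COL1A2 and LYZ were under the limit and CD3E, COL1A1, PECAM1 and VWF above it and higher after siTTF-1 in both lines. The intensities of the 7 summed to 656 (siTTF-1) and 586 (siNTC) in NCI-H209 and to 711 (siTTF-1) and 610 (siNTC) in Lu139, and their part in any result was not tested. NKX2-1 on its brighter probe set, 211024_s_at, had an intensity of 243 on the siTTF-1 array and 596 on the siNTC array of NCI-H209, 40.7% of control. In Lu139 it had 461 after siTTF-1 and 780 after siNTC, 59.1% of control. The dimmer NKX2-1 probe set, 210673_x_at, had 127 after siTTF-1 and 196 after siNTC in NCI-H209, 64.6% of control. In Lu139 this dimmer probe set had 221 and 400, 55.3% of control. The probe sets thus disagree on the size of the decrease in NCI-H209 and on which line had the larger one.

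On 3 of its 4 probe sets TRIM24 had lower intensities with siTTF-1 than with siNTC in NCI-H209 and Lu139, and the fourth was near background on all 4 arrays. On 213301_x_at, its brightest probe set, the intensity was 468 after siTTF-1 and 1392 after siNTC in NCI-H209, 33.6% of control. On the same probe set Lu139 had 616 after siTTF-1 and 1271 after siNTC, 48.5% of control. Both siTTF-1 arrays were thus below both siNTC arrays, and on the deposited scale the control levels of the lines were close to each other. As log2 fold changes these are -1.53 in NCI-H209 and -1.02 in Lu139, which average -1.28 (SD 0.36, n = 2 lines). In bulk RNA, fewer cells that express a gene and less of its RNA per cell cannot be told apart.

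The second bright TRIM24 probe set, 204391_x_at, gave nearly the same values. Its intensity was 343 after siTTF-1 and 1067 after siNTC in NCI-H209, and 518 and 1077 in Lu139, that is 32.1% and 48.1% of control. The log2 fold changes were -1.59 and -1.03 (average -1.31, SD 0.39, n = 2 lines). The siTTF-1 and siNTC arrays again did not overlap, in the contrast by which TRIM24 was picked. Both of these probe sets carry the suffix that Affymetrix gives to designs open to cross-hybridisation, so they are not fully specific to TRIM24 and, since they read the same gene, not independent of each other.

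The TRIM24 probe set 1569316_at, which lacks that suffix, was dim and ran the same way. It read 20.4 after siTTF-1 and 59.3 after siNTC in NCI-H209, where its mean lay just under the expression limit, and 46.0 and 73.7 in Lu139. These are 34.3% and 62.5% of control, with log2 fold changes of -1.0 and -0.51. Taken alone, as an alternative chosen after the values were seen, it puts the decrease in Lu139 past 1.5-fold on the raw intensities but short of it once 18.7 is added. The fourth probe set, 204390_at, read 13.3 after siTTF-1 and 11.8 after siNTC in NCI-H209, and 19.3 and 15.1 in Lu139. It was above the limit in neither line, and its log2 fold changes were 0.07 and 0.17. With all 4 probe sets averaged on the log2 scale, TRIM24 had -1.01 for NCI-H209 and -0.60 for Lu139, a smaller decrease than on the bright pair.

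**Figure D1:**
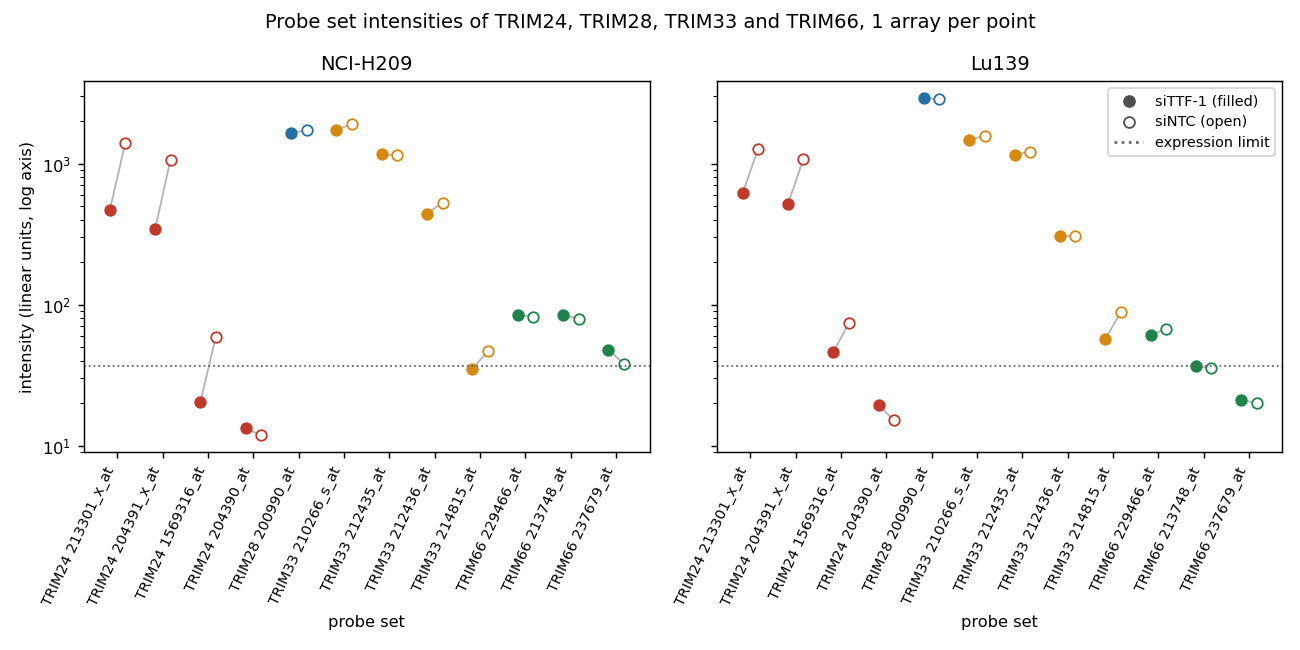
Intensity (linear units on a log axis) of the 12 probe sets in NCI-H209 (left) and Lu139 (right), 1 array per point, with siTTF-1 filled and siNTC open and the expression limit dotted. The 3 TRIM24 probe sets above the limit over the 4 arrays have their siTTF-1 point below their siNTC point in both lines. The pairs of TRIM28 and of the 3 brighter TRIM33 probe sets lie close together.

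Both bright TRIM24 probe sets stood near the low end of all probe sets. Ranked from the lowest log2 fold change, 204391_x_at was number 22 and 213301_x_at number 31 of 33231 probe sets above the limit in NCI-H209. In Lu139 they were numbers 44 and 47 of 31347. The brighter NKX2-1 probe set, which reads the targeted transcript, ranked 97 and 257 with log2 fold changes of -1.23 and -0.74, so both bright TRIM24 probe sets had larger decreases than it did in each line. The share of probe sets at least 1.5-fold lower was 3.51% for NCI-H209 and 1.61% for Lu139. Among the members, 2 of the 10 above the limit in NCI-H209 were that low, as were 2 of the 9 in Lu139, in both lines the same TRIM24 pair. At least 2-fold lower in both lines were 6 of 29032 probe sets (0.0207%). Beside the pair for TRIM24 these were the probe sets of RCN1, MAP7D2 and KRCC1 and 1 without a gene name. These counts describe the contrast by which TRIM24 was picked and are not support for it. The decrease was larger in NCI-H209 on both bright TRIM24 probe sets and on the dim 1569316_at, which was under the limit in that line. With 1 array per siRNA in each line that difference could not be tested.

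None of the 8 probe sets of TRIM28, TRIM33 and TRIM66 was 1.5-fold lower or higher in either line with 18.7 added, though TRIM33 on 214815_at was past 1.5-fold lower in Lu139 on the raw intensities. With 18.7 added, 1.12% of all probe sets above the limit were 1.5-fold higher in NCI-H209 and 0.160% in Lu139. Their log2 fold changes ran from -0.28 to 0.23 in NCI-H209 and from -0.50 to 0.04 in Lu139. In each line 4 of the 8 were lower and 4 higher, 2 were lower in both lines and 2 were higher in both. For comparison, the SD of the log2 fold change over all probe sets above the limit was 0.275 in NCI-H209 and 0.208 in Lu139. With no replicate arrays, small changes of the paralogs are not excluded.

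TRIM28, the co-repressor of KRAB zinc finger proteins, was read by 200990_at alone and was bright. Its intensity was 1639 after siTTF-1 and 1732 after siNTC in NCI-H209, 94.6% of control. In Lu139 it was 2921 after siTTF-1 and 2855 after siNTC, 102% of control. The siRNA difference was thus small next to the difference between the lines, with log2 fold changes of -0.08 and 0.03.

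TRIM33, the SMAD-binding member, had 3 bright probe sets with small differences and 1 dim probe set with a larger one. On 210266_s_at the intensity was 1725 after siTTF-1 and 1913 after siNTC in NCI-H209, while Lu139 had 1474 and 1579, giving log2 fold changes of -0.15 and -0.10. On 212435_at NCI-H209 had 1165 and 1143 and Lu139 had 1150 and 1216, so the sign differed between the lines (0.03 and -0.08). The 212436_at probe set read 441 after siTTF-1 and 529 after siNTC in NCI-H209 and 308 and 307 in Lu139, with log2 fold changes of -0.25 and 0.01. These bright probe sets place TRIM33 after siTTF-1 between 83.3% and 102% of control.

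The dim TRIM33 probe set, 214815_at, was lower in both lines. It read 35.1 after siTTF-1 and 46.6 after siNTC in NCI-H209, and 56.8 and 88.4 in Lu139, or 75.3% and 64.2% of control. Its log2 fold changes, with 18.7 added, were -0.28 and -0.50. The Lu139 decrease was past 1.5-fold on the raw intensities and short of it on that scale. The dim TRIM24 probe set 1569316_at was similar in Lu139, at 62.5% of control and -0.51. The brighter TRIM33 probe sets had no decrease of that size in Lu139, so the probe sets of this gene disagree. Whether they read different transcripts of TRIM33 was not tested.

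TRIM66 was dim on all 3 of its probe sets. On 229466_at the intensity was 84.8 after siTTF-1 and 82.1 after siNTC in NCI-H209, and Lu139 had 60.4 and 67.4, for log2 fold changes of 0.04 and -0.12. On 213748_at NCI-H209 had 85.0 and 78.8, and Lu139 had 36.4 and 35.4, where the probe set was under the limit. On 237679_at NCI-H209 had 47.9 and 38.0, a log2 fold change of 0.23, and Lu139 had 21.1 and 20.0, also under the limit. The siTTF-1 array was the higher of the pair on all 3 probe sets in NCI-H209, each time by less than the SD of all probe sets in that line.

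**Figure D2:**
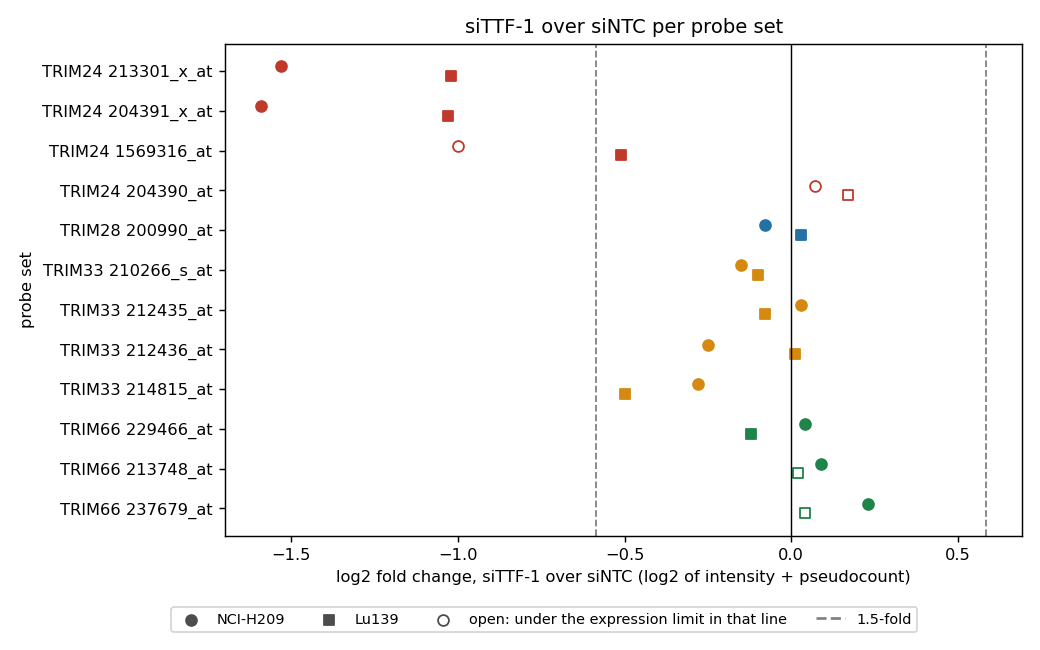
Log2 fold change of siTTF-1 over siNTC for each probe set, with NCI-H209 as circles, Lu139 as squares, open symbols where the probe set is under the expression limit in that line and dashed lines at 1.5-fold. The symbols of the 3 TRIM24 probe sets above the limit over the 4 arrays lie between -1.59 and -0.51. The one at -0.51, 1569316_at in Lu139, lies inside the dashed lines, next to TRIM33 214815_at in Lu139 at -0.50. Every symbol of TRIM28, TRIM33 and TRIM66 lies inside the dashed lines on this scale, with 18.7 added to each intensity.

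**Figure D3:**
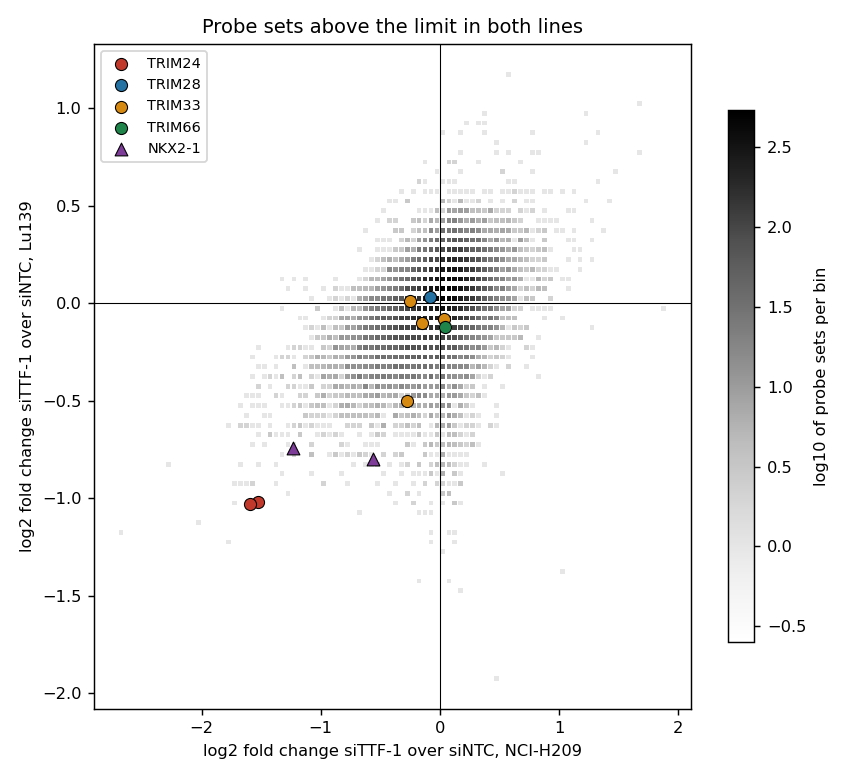
Log2 fold change in NCI-H209 (horizontal) and in Lu139 (vertical) of the 29032 probe sets above the limit in both lines, with grey shading for the number per bin, coloured circles for the TIF1 genes and triangles for NKX2-1. The TRIM24 pair lies at about -1.5 and -1.0 at the lower left edge, beyond both NKX2-1 probe sets, and the paralogs lie within the bulk apart from 214815_at of TRIM33, at -0.28 and -0.50.

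The genes with the most similar pattern to TRIM24 were sought by the Euclidean distance between log2 profiles over the 4 arrays, each centred on its own mean, among 14552 other genes read by their brightest probe set. The nearest was SAMHD1, a deoxynucleotide triphosphate hydrolase, at a distance of 0.14. Its intensity was 174 after siTTF-1 and 548 after siNTC in NCI-H209 and 266 and 521 in Lu139. DSE, an epimerase of dermatan sulfate synthesis, followed at 0.19, then ZCRB1 at 0.30, the adaptor complex subunit AP3M2 at 0.33 and URI1 at 0.37. Their log2 fold changes ran from -1.56 to -1.19 in NCI-H209 and from -0.92 to -0.62 in Lu139. SAMHD1 and URI1 were read by probe sets open to cross-hybridisation. Not all probe sets of these genes were 1.5-fold lower in both lines. Those that were numbered 3 of 6 for SAMHD1, 1 of 4 for DSE, 2 of 2 for ZCRB1, 1 of 2 for AP3M2 and 2 of 4 for URI1. The paralogs were farther from TRIM24, TRIM33 at 1.24 (rank 1633), TRIM66 at 1.35 (rank 3751) and TRIM28 at 1.42 (rank 5673). The profile rests on 4 arrays that all genes share, and the ranks describe those arrays.

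The levels of the family were also compared between the lines, a contrast that played no part in choosing the genes. TRIM28 was higher in Lu139 than in NCI-H209, and on the deposited scale TRIM33 gave opposite answers on different probe sets. In limma's model with terms for line and siRNA, 7 of the 10 member probe sets above the limit passed an adjusted p under 0.05 over 32768 probe sets, 3 higher and 4 lower in Lu139. Of all probe sets 68.0% passed, 19.2% higher and 48.8% lower, so the members' share is near the background. TRIM66 213748_at was under the limit in Lu139 and TRIM24 1569316_at in NCI-H209, so each entered through the line in which it is higher, and their differences are given without a test. Of the 8 member probe sets above the limit in both lines, an alternative chosen after the values were seen, 5 passed, 2 higher and 3 lower in Lu139, where 65.1% of such probe sets passed, 17.9% higher and 47.2% lower. The median over all tested probe sets was itself -0.248 (log2, Lu139 over NCI-H209), and quantile normalization over the 4 arrays moved it to 0.051 and the share of calls that were higher to 53.4% from 28.3%. Under that scaling 5 of the 8 were higher and 0 lower at an adjusted p under 0.05 in limma. The p-values take in only how these 4 arrays vary, which may be technical, and rest on 1 residual degree of freedom and 5.96 prior ones. Exactly equal values occurred on the 2 arrays within each line and on 0 probe sets across lines. Whether each line was processed apart was not given. If it was, line and processing cannot be told apart in these p-values and intervals.

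TRIM28 was higher in Lu139. Its intensities of 2921 and 2855 in Lu139 were both above the 1639 and 1732 of NCI-H209. The log2 difference was 0.77 (limma 95% interval 0.58 to 0.97, adjusted p = 1.45e-04). It was 0.83 between the siTTF-1 arrays and 0.72 between the siNTC arrays, and 1.23 under quantile normalization over the 4 arrays.

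TRIM66 on 213748_at read 36.4 and 35.4 in Lu139, and 85.0 and 78.8 in NCI-H209. The log2 difference was -0.88, or -0.71 under quantile normalization over the 4 arrays, and the Lu139 values lie under the expression limit. On 229466_at the difference was -0.31 (limma adjusted p = 0.0272), which lies near the median of all probe sets and was -0.09 with that normalization (limma adjusted p = 0.464). The remaining probe set, 237679_at, was under the limit over the 4 arrays and had a difference of -0.65 that was not tested.

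The TRIM33 probe sets did not agree on a line difference. Lu139 was higher on 214815_at (0.60, limma adjusted p = 0.00138) and lower on 212436_at (-0.62, limma adjusted p = 0.00266), and 212435_at had 0.03 (limma adjusted p = 0.765). Under quantile normalization over the 4 arrays 212436_at had -0.16 (limma adjusted p = 0.262) and 212435_at 0.49 (limma adjusted p = 0.00228). With that normalization 214815_at had 0.78 (limma adjusted p = 2.24e-04). On 210266_s_at the difference was -0.25 (limma adjusted p = 0.0365), which lies at the median of all tested probe sets, -0.248. Under quantile normalization over the 4 arrays it was 0.21 (limma adjusted p = 0.0647). No TRIM33 probe set was called lower in Lu139 under that scaling.

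On the deposited scale TRIM24 had similar control levels in both lines, and the lines differed more on the siTTF-1 arrays. On 213301_x_at the log2 difference of Lu139 over NCI-H209 was 0.38 between the siTTF-1 arrays and -0.13 between the siNTC arrays, with 0.13 in the model (limma adjusted p = 0.444). On 204391_x_at it was 0.57 and 0.01, with 0.29 in the model (limma adjusted p = 0.116). Quantile normalization over the 4 arrays brought the model differences to 0.59 and 0.76, past the threshold (limma adjusted p = 0.00376 and 0.00144). How close the TRIM24 levels of the lines are, control levels included, thus depends on the scaling. The dim 1569316_at, under the limit in NCI-H209, had a difference of 0.49.

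**Figure D4:**
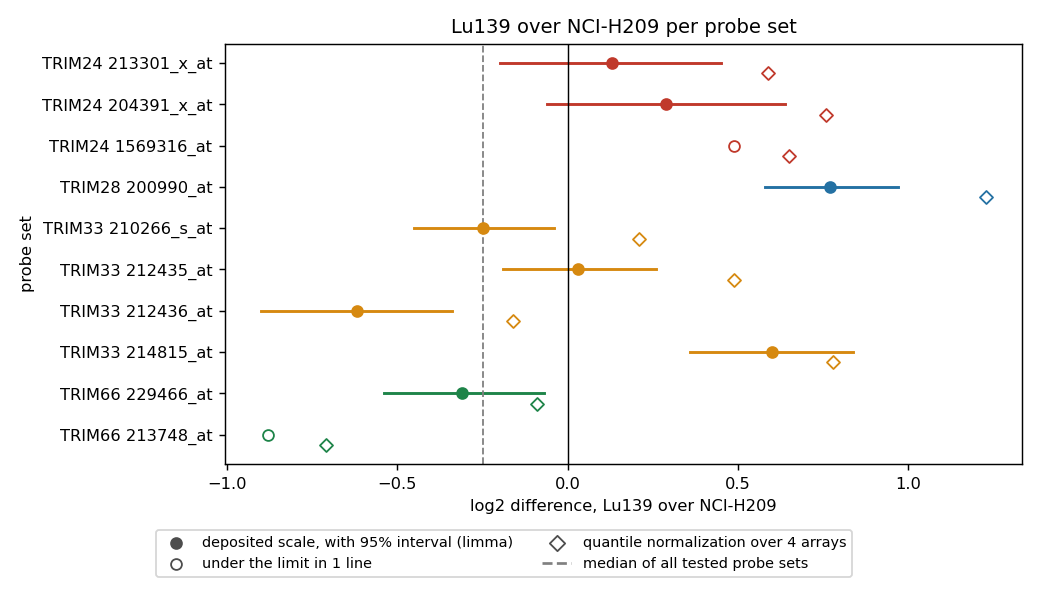
Log2 difference of Lu139 over NCI-H209 for the 10 member probe sets above the limit over the 4 arrays, with the limma estimate and 95% interval as filled points and bars, open circles without an interval for the pair under the limit in 1 line, open diamonds for quantile normalization over the 4 arrays and a dashed line at the median of all tested probe sets, -0.248. TRIM28 lies above 0 on both scales, and the TRIM33 probe sets lie on both sides of 0.

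Genes around the family were followed through 5 lists, 106 of whose 130 genes were tested, each by its brightest probe set. At an adjusted p under 0.05 in limma, 0 genes of these lists and 0% of all probe sets passed for siTTF-1 over siNTC in either direction. At an unadjusted p under 0.05, 6.25% of the 14553 tested genes were higher and 8.69% lower. As a baseline, 37.3% of tested genes were higher and 26.9% lower in both lines, with medians of 0.008 in NCI-H209 and 0.035 in Lu139.

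Among genes listed as silencing machinery around TRIM28, 16 of 24 had lower values in both lines by brightest probe set and 4 had higher ones. That split depends on the probe set. Over all probe sets, in NCI-H209 and Lu139, the 4 had -0.35 and -0.22 (PPHLN1), -0.26 and -0.05 (RBBP4), -0.08 and 0.05 (CBX3) and 0.08 and 0.12 (MTA1). Of the 24, 7 were lower and 0 higher at an unadjusted p under 0.05 in limma. The median log2 fold changes were -0.15 and -0.05. The HP1 genes CBX5 and CBX1 had -0.34 and -0.31 (over all its probe sets -0.21 and -0.22), and -0.40 and -0.24, in NCI-H209 and Lu139, while CBX3, which also encodes an HP1 protein, had 0.01 and 0.04. SETDB1, the methyltransferase partner of TRIM28, had -0.43 and -0.16 on its brightest probe set but -0.18 and -0.01 over both of its probe sets. ATF7IP, a cofactor of SETDB1, had the lowest mean, with -0.07 and -0.85 on a probe set open to cross-hybridisation and -0.15 and -0.39 over its 4 probe sets. MTA1 had the highest, with 0.11 and 0.16.

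Other chromatin readers with a PHD finger or a bromodomain showed a similar split, 13 of 25 lower and 3 higher in both lines, and 8 lower and 0 higher at an unadjusted p under 0.05 in limma. The list's median log2 fold change was -0.15 in NCI-H209 against -0.14 in Lu139. BAZ1A, a subunit of chromatin remodelling complexes, was lowest with -0.98 and -0.24, and BRPF3, a scaffold of histone acetyltransferase complexes, highest with 0.26 and 0.22, or 0.07 and 0.15 over all its probe sets. TRIM24 at -1.53 and -1.02 was lower than each of these readers in mean log2 fold change, in the contrast by which it was picked.

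Of p53, its ubiquitin ligases and its targets, 15 genes were tested, of which 8 had higher values in both lines and 4 lower ones. At an unadjusted p under 0.05 in limma 4 were higher (CDKN1A, GADD45A, SESN2 and CCNG1) and 3 lower (MDM4, RRM2B and ZMAT3). CDKN1A, which encodes the cell cycle inhibitor p21, was highest, at 1580 after siTTF-1 and 483 after siNTC in NCI-H209 and at 681 and 329 in Lu139. Its log2 fold changes of 1.67 and 1.01 were near those of TRIM24 in size and opposite in sign. MDM2, the main ubiquitin ligase of p53, had 0.21 and 0.13 (0.16 and 0.03 over all its probe sets), and its relative MDM4 was the lowest of the list with -0.61 and -0.42 (-0.39 and -0.30). CDKN1A was already known to be high in these arrays when the list was made.

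Nuclear receptors, their co-regulators and retinoid genes, partners of TRIM24, had medians of -0.01 and 0.08 over 18 genes, with 7 higher in both lines and 4 lower. The retinoic acid receptor RARA had 0.20 and 0.22 (0.16 and -0.06 over all its probe sets), and its partner RXRA had 0.01 and -0.09 (0.06 and 0.07). The estrogen receptor ESR1 was highest with 0.04 and 0.62 (0.04 and 0.18), and the glucocorticoid receptor NR3C1 lowest with -0.12 and -0.46. At an unadjusted p under 0.05 in limma 1 gene of the list was lower, NR3C1, and 0 were higher.

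SMAD and TGF-beta genes, the setting of TRIM33, had medians of -0.01 and 0.00 over 24 genes, with 10 higher in both lines and 9 lower. SMAD4 had 0.09 and 0.01, or 0.05 and -0.08 over all its probe sets. TGFBR1, a type I receptor, was highest with 0.59 and 0.10, but had 0.20 and -0.09 over its 3 probe sets, and the inhibitory SMAD7 lowest with -0.13 and -0.45. In limma 2 genes were higher (ID2 and TGFBR1) and 2 lower (SMAD7 and SMURF2) at an unadjusted p under 0.05.

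Among 43 other genes with TRIM symbols above the limit, 21 were higher and 9 lower in both lines, with medians of 0.10 and 0.04. The lowest by mean were TRIM44 with -0.88 and -0.26, TRIM9 with -0.88 and 0.06 and TRIM2 with -0.42 and 0.02. The highest were TRIM58 with 0.27 and 0.40, TRIM37 with 0.36 and 0.18 and TRIM47 with 0.23 and 0.20. Over all probe sets of a gene, TRIM44 had -0.67 and -0.09, TRIM9 -0.59 and 0.01, TRIM2 -0.16 and -0.03, TRIM58 0.15 and 0.16 and TRIM37 0.04 and 0.11. At 1.5-fold, 2 of the 43 were lower in NCI-H209, TRIM44 and TRIM9, and 0 in Lu139. By its brightest probe set TRIM24 had the largest decrease in each line of the TRIM genes above the limit. TRIM24 was picked by its decrease in this contrast, so that place is a description and not support.

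**Figure D5:**
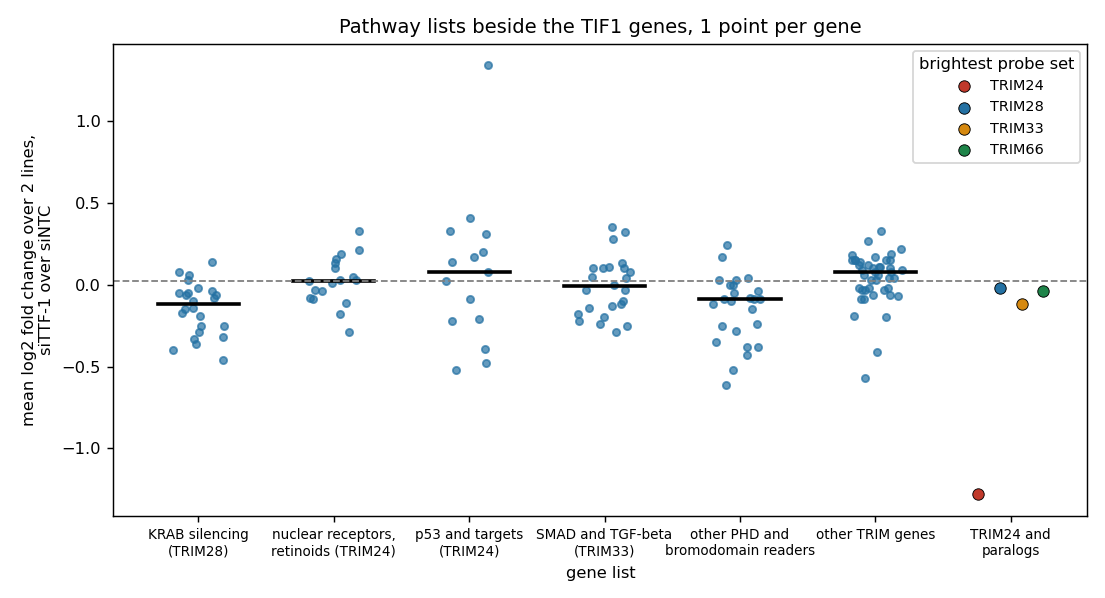
Mean log2 fold change over the 2 lines of siTTF-1 over siNTC for each tested gene of 5 pathway lists and of the other TRIM genes, 1 point per gene by its brightest probe set, with list medians as black bars and the median of all tested genes dashed. TRIM24 at -1.28 lies below all other points shown, CDKN1A at 1.34 above them, and TRIM28, TRIM33 and TRIM66 lie between -0.12 and -0.02.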

How the data were processed

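The authors deposited probe set intensities on a linear scale (3.03 to 26148) in 1 table for the 4 arrays. Per the labels' protocols, total RNA was column-purified and biotinylated cRNA prepared by the Affymetrix protocol, and the submitters' processing notes name Affymetrix Expression Console. The summarisation and normalization were not given in the sources used here. In the values, 2416 probe sets in NCI-H209 and 2206 in Lu139 were exactly equal on both arrays of the line, against 0 for any pair across lines, so levels between lines depend on scaling.

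Symbols came from the platform's annotation, updated by gene identifier through RefSeq (41037 of 41091 probe sets with 1 symbol matched, assembly GRCh38.p14, names alone). The pseudocount was the 25th percentile of all values. The limit was the 40th percentile of mean log2 values. limma (version 3.58.1, R 4.3.3) was fitted over 32768 probe sets with terms for line and siRNA, an intensity trend and Benjamini-Hochberg adjustment, two-sided. A gene was read by its brightest probe set. Named beside the members were NKX2-1, the 5 nearest profiles, each list's lowest and highest gene and preset partners, and the 3 lowest and 3 highest other TRIM genes. The KRCC1, RCN1 and MAP7D2 probe sets, and list genes named for an unadjusted p, were picked after their values were seen. Members and lists were chosen with earlier results of these data known.

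On simulated arrays of 32768 probe sets the fit recovered 98.5% of line changes of 1 on the log2 scale and 13.4% of those of 0.5, with 12 false calls. For siTTF-1 over siNTC it recovered 94% and 2.99%, with 13 false calls. The simulated noise was drawn from the fit's own variance prior, and each planted siTTF-1 change was the same in both lines. Real changes can differ between the lines, so these shares do not show how many of them the fit missed. Alternatives were the pseudocount, the normalization, the limit, the variance prior, the fold called, the line term and the mean of a gene's probe sets. The plots were made with Python 3.11.15 and matplotlib 3.10.9.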

Additional observations from a re-analysis of the deposited data

Results flagged for a closer look

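On 4 paralog probe sets the siTTF-1 and siNTC arrays of NCI-H209 differed one way and those of Lu139 the other. The log2 fold changes in NCI-H209 and Lu139 were -0.08 and 0.03 for TRIM28 (200990_at), 0.03 and -0.08 for TRIM33 on 212435_at, -0.25 and 0.01 for TRIM33 on 212436_at, and 0.04 and -0.12 for TRIM66 (229466_at). Each line has 1 array per siRNA, so the differences were not tested. All 8 values were under 1.5-fold.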

How the results depend on the processing

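The 2 member probe sets at least 1.5-fold lower in each line, both of TRIM24, were also 2 with the smaller pseudocount, after quantile normalization of all 4 arrays or of each line alone, and at 2-fold. With the larger pseudocount there were 2 in Lu139 and 3 in NCI-H209, where TRIM24 1569316_at came above the limit. TRIM24 ranged from -1.55 to -1.48 in NCI-H209 and from -1.03 to -1.0 in Lu139 over the pseudocounts and normalizations, and moved to -1.01 and -0.60 with the mean of its probe sets. For Lu139 over NCI-H209, a limit at the 60th percentile left 6 member probe sets, of which 3 passed in limma against 7 of 10. TRIM33 on 210266_s_at turned to 0.21 with quantile normalization over the 4 arrays. That normalization also gave 67 probe sets past an adjusted p under 0.05 in limma for siTTF-1 over siNTC, against 0, and 1 gene of the pathway lists, CDKN1A, against 0. The causes were not tested. The line term pairs the arrays of a line, so the limma fit for siTTF-1 is a paired one, and without that term 0 list genes passed as well. Each group holds 1 array, so no replicate could be left out. Dim probe sets near the limit, as those of TRIM66, limit what can be said of that gene.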
